A study of Mus musculus with 8 samples.

Results

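Respiratory complexes II to V of the mitochondrial inner membrane, with the electron carrier cytochrome c, were compared between germinal centre (GC) B cells positive and negative for a GFP-MYC fusion protein. The members were the nuclear genes whose symbol is Sdha, Sdhb, Sdhc, Sdhd, Cyc1 or Cycs, or starts with Uqcr, with Atp5, or with Cox followed by a digit between 4 and 8. This gave 48 of the 18193 genes that the array measures with a probe set for a single gene: 4 of complex II, 9 of complex III (Cyc1 counted there), Cycs itself, 17 of complex IV and 17 of complex V. Each gene was represented by its probe set with the highest mean log2 signal. A filter on dim probe sets left 45 members to be tested, and Cox4i2, Cox7b2 and Cox8b fell under it.

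RNA was measured in 4 samples of MYC-positive GC B cells and, for comparison, in 4 samples of MYC-negative GC B cells. All 8 samples came from spleens of 8 week old mice labelled GFPMYC/C57BL6, knock-in animals that make MYC fused to GFP, which had received sheep red blood cells (SRBC) as an immunization 12 days before. The MYC-negative cells therefore carry the same allele and had the same immunization, and no sample came from mice without the fusion. GC B cells were gated as high for peanut agglutinin binding (PNA) and for CD95, and then sorted by GFP. The RNA of each sample was amplified and read on 1 Affymetrix mouse expression array. The sample descriptions pair each positive sample with a negative one. One label describes the sort as made per mouse and another speaks of pooled spleens, so it is not settled whether a pair is 1 animal.

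Complex II oxidises succinate as part of the citric acid cycle and passes the electrons to ubiquinone. Complex III hands them from ubiquinol to cytochrome c while pumping protons, and complex IV uses cytochrome c to reduce oxygen. Complex V, the ATP synthase, lets the protons flow back through its membrane rotor and makes ATP in its F1 head. All subunits of complex II are encoded in the nucleus, whereas the catalytic core of complex IV, cytochrome b of complex III and a pair of complex V subunits are encoded by mitochondrial DNA. MYC is known as an activator of nuclear genes for mitochondrial proteins, and GC B cells that express it are those selected to return to division.

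The promoters of the members are shown first because known regulators of respiratory genes bind short motifs near the start site. RefSeq windows of the GRCm38.p6 build, 250 bases before to 50 bases after a start site, were matched by symbol to 36 of the 48 members, in 39 windows. The canonical E-box bound by MYC, CACGTG, was found in 10.3% of the member windows, against 7.15% of all 32851 windows. The core of the NRF1 motif, GCATGCGC, was found on either strand in 20.5% of member windows, against 2.71% of all windows, and the ETS motif CCGGAAG, bound by the GABP factor, in 33.3% against 8.86%. None of the 3 motifs contains another, and base composition was not matched between the members and the other windows. A match is a string of letters and not a measured binding site. The 3 windows below belong to members that were higher in MYC-positive cells and hold 1 of the motifs each, printed 5′ to 3′ along the gene with the motif in capitals: the E-box of Atp5g1 (chr11:96075582-96075881, minus strand), the ETS motif of Sdhd, read on the opposite strand (chr9:50603800-50604099, minus strand), and the NRF1 core of Cycs (chr6:50566520-50566819, minus strand).
Atp5g1: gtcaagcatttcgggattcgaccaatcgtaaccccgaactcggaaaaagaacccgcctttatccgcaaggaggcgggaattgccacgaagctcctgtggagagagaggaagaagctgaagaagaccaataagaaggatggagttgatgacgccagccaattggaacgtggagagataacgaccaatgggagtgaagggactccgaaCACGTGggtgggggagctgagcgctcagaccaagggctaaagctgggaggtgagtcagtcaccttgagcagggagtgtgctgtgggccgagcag
Sdhd: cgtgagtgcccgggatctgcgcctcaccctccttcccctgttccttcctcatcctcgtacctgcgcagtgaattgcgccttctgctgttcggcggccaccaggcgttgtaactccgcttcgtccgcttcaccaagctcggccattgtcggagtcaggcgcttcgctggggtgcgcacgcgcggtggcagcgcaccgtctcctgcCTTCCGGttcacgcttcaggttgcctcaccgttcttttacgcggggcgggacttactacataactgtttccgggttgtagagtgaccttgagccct
Cycs: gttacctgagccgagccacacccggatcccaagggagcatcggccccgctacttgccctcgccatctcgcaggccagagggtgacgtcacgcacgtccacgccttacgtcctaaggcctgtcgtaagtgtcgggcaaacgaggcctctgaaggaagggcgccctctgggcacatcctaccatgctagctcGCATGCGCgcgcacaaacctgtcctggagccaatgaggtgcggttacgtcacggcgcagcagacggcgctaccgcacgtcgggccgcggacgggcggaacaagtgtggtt

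Of the 11 members with a window that were higher in MYC-positive cells, 2 held the E-box (Atp5g1 and Atp5l), 4 the NRF1 core (Cycs, Uqcr11, Uqcrc1 and Atp5l) and 4 the ETS motif (Sdhd, Uqcr11, Atp5l and Atp5md). Over all 36 members with a window, called or not, 4 held the E-box, 8 the NRF1 core and 13 the ETS motif. The uncalled ones included Atp5g3 and Atp5pb with the E-box, and Sdhb, Atp5k and Cox6a1 with both other motifs.

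Myc checked the labels: its log2 signal was higher by 2.83 in MYC-positive samples (limma adjusted p = 0.00069). The deposited signals had been scaled array by array, with trimmed means of 497 to 498, and between 34.7% and 42.6% of probe sets had a signal above 100. Median signals of the arrays still ran from 28.2 to 55.8. Values are probe set signals with no unit. Each difference is the log2 signal of MYC-positive minus that of MYC-negative samples, from a limma fit that blocks on the pair. P-values were adjusted over the 11754 genes of the fit, and a gene with an adjusted p under 0.05 is termed called. Signals of different genes come from different probes, so levels are compared only within a gene. In such bulk samples, fewer cells with a transcript and less RNA per cell cannot be told apart, and the common scaling hides any change of total RNA per cell. With 4 arrays a group, the number of arrays limits the precision.

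All tested genes of complexes II, III and V and of cytochrome c had a positive difference between MYC-positive and MYC-negative GC B cells, mostly a small one, and 13 of them passed the test. No complex IV gene was called higher in this fit, whereas 7 of its 14 were after median centring of the arrays. Median centring called 27.3% of all genes higher. Of the 45 members tested, these 13 were called higher, 1 was called lower and 31 were not called. Over all genes tested, 11.2% were called higher and 11.5% lower, against 28.9% and 2.22% of the members. The difference was positive for 41 of the 45, and positive in all 4 pairs for 27 of them, a pattern shown by 19.3% of all genes tested. The median difference over the members was 0.33, against -0.06 over all genes tested. At an unadjusted p under 0.05, 23 of the 45 members were higher and 2 lower, against 1996 and 2257 of all 11754 genes. The number of calls depended on pairs 1 and 2: without pair 1, 0 of the 45 were called, and without pair 2, 4 were called higher and 1 lower. Without pair 3, 10 were called higher and 1 lower, and without pair 4, 16 and 1. Over all 11754 genes, the fits without pairs 1 to 4 called 3.43%, 3.87%, 10.1% and 14.8% higher, and 352, 425, 997 and 2036 genes lower. Between 40 and 42 of the 45 differences were positive in each of these 4 fits. Without the pair block, 7 were called higher and 1 lower, against 8.98% of all 11754 genes higher and 901 genes lower.

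By complex, 6 of 9 members of complex III were called higher, with a median difference of 0.53. Complex II had 1 of 4 called higher (median 0.44), complex V 5 of 17 (median 0.33) and complex IV 0 of 14, with 1 called lower (median 0.25). Complex III had a higher median than complex IV in each of the 4 pairs: 0.60, 0.46, 0.46 and 0.65 in pairs 1 to 4 for complex III, against 0.37, -0.03, 0.17 and 0.14 for complex IV. No test of the difference between complexes was made. For scale, the Nduf genes of complex I had 20 of 43 called higher and 0 lower (median 0.49), and the Mrpl and Mrps genes of the mitochondrial ribosome 48 of 76 and 0 (median 0.73).

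**Figure D1:**
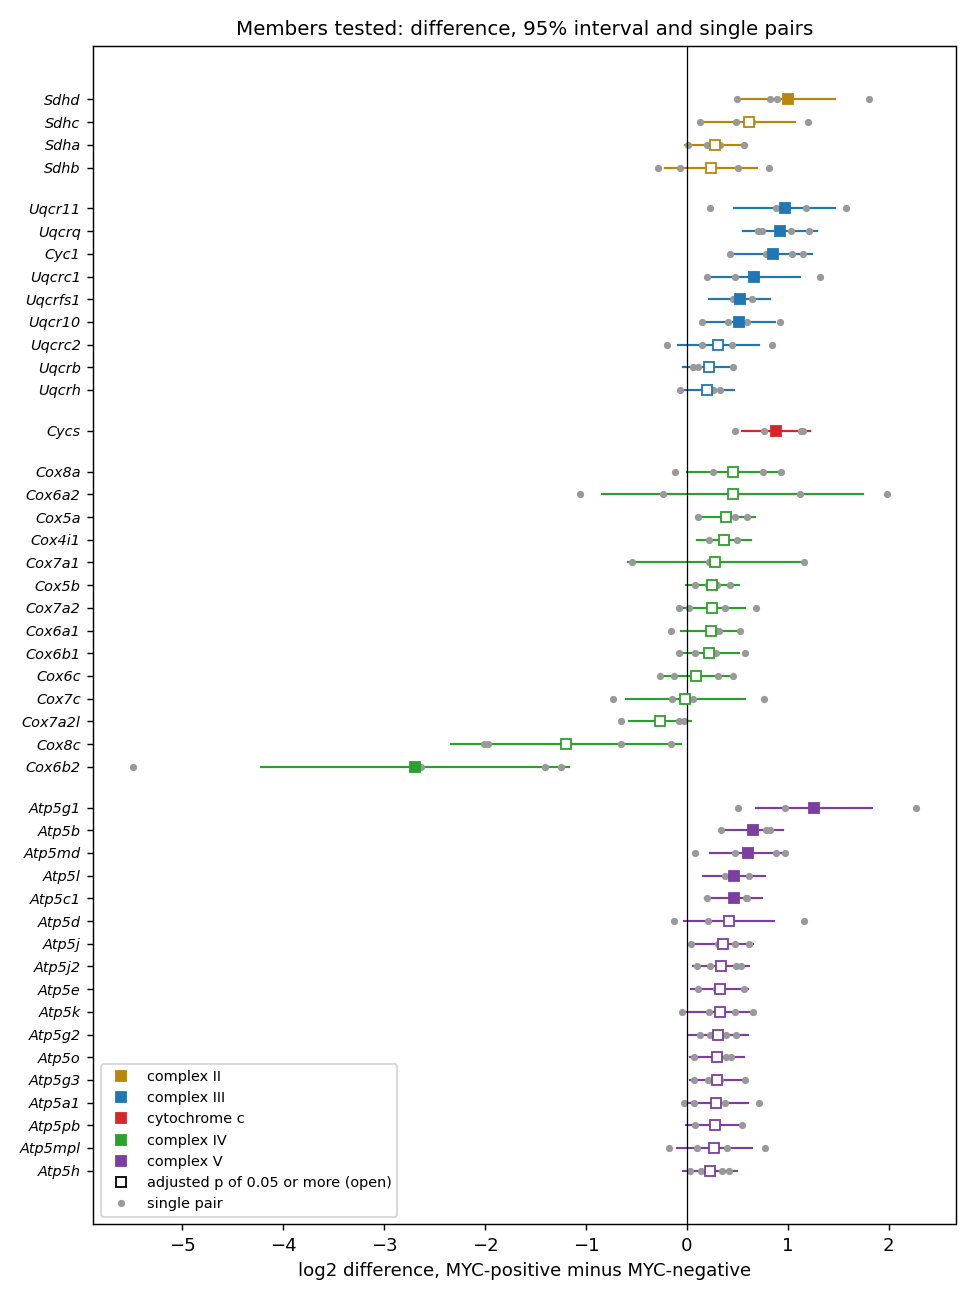
Log2 difference, MYC-positive minus MYC-negative, for the 45 members tested, by complex. Squares are fitted differences with 95% intervals, filled where the adjusted p was under 0.05, and grey points are the 4 single pairs. All members of complexes II, III and V lie right of 0, and Cox6b2 lies farthest left at -2.70.

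**Figure D2:**
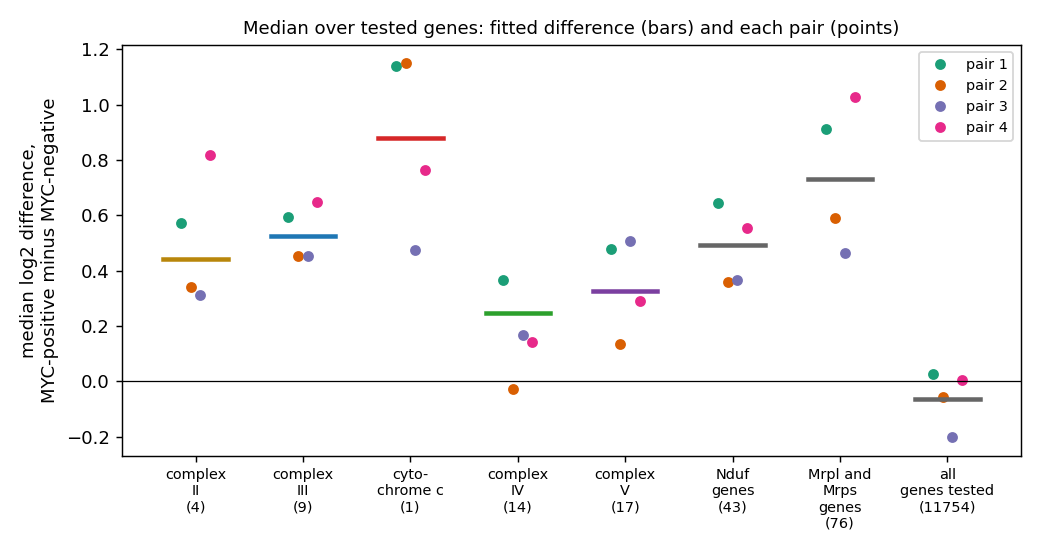
Median log2 difference, MYC-positive minus MYC-negative, over the tested genes of each complex, of the Nduf genes, of the Mrpl and Mrps genes and of all genes tested, with the number of genes in brackets. Bars are medians of the fitted differences and points are medians within each pair. Complex IV, at 0.25, has the lowest bar among the complexes, and its pair 2 point lies at -0.03.

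The members are mostly strongly measured genes, so their counts are also given by signal. Of the 30 members with a mean log2 signal over 12 (a signal of 4096), 6 were called higher (20.0%), against 17.5% of all genes above that level, and their median difference was 0.31 against 0.12. Of the 11 members with a mean between 9 and 12 (512 to 4096), 7 were called higher, against 16.3% of all genes in that range, with medians of 0.61 and -0.02. These ranges were chosen after the values were seen. Complexes III and IV differed in signal. The middle range held Cyc1, Uqcr11, Uqcrc1, Uqcrfs1 and Uqcrq of complex III, all called, but only Cox7c and Cox8a of complex IV, neither called. The brighter Uqcr10, Uqcrc2, Uqcrb and Uqcrh of complex III differed by 0.52, 0.31, 0.22 and 0.20, and only Uqcr10 was called. The part of signal level in the contrast between these complexes was not tested.

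Complex II consists of the flavoprotein Sdha, which oxidises succinate, the iron-sulphur subunit Sdhb, and the membrane anchors Sdhc and Sdhd, which hold heme and the ubiquinone site. Sdhd was the member called higher. Sdhd had signals of 5300.2, 6309, 6574 and 8598 in the MYC-positive samples of pairs 1 to 4, against 2851, 1809, 4666 and 4863 in their MYC-negative partners. All 4 positive samples lay above all 4 negative ones, and pair 2, with the lowest negative sample, differed most. The fitted difference was 1.00 (SE 0.20, adjusted p = 0.00996), a 95% interval of 0.54 to 1.47. It rests on a probe set whose suffix marks probes shared between transcripts or genes. The other probe set of Sdhd, with a mean signal of 2758, differed by 0.60 and was higher in all 4 pairs.

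Sdhc had signals of 1684, 1821, 1333 and 2366 in the MYC-positive samples of pairs 1 to 4, against 1079, 1304, 1219 and 1033 in their MYC-negative partners. These groups did not overlap either, and the positive sample of pair 4 was the highest. The difference of 0.61 did not pass the threshold (SE 0.20, adjusted p = 0.0596). Sdhc did pass under 5 of 12 alternatives. These were quantile normalization (adjusted p of 0.029), median centring, a filter at the 60th percentile, a floor of 16 and the fit without pair 3. Sdha had signals of 7422, 7287, 9874 and 9629 in the MYC-positive samples of pairs 1 to 4, against 5913, 6346, 6679 and 9571 in their MYC-negative partners. The groups overlapped, pair 4 was nearly level, and the difference was 0.28 (SE 0.13, adjusted p = 0.168). Sdhb had signals of 3369.8, 2807, 1641 and 3570.0 in the MYC-positive samples of pairs 1 to 4, against 2376, 2937, 2008 and 2034 in their MYC-negative partners. Pairs 2 and 3 were lower in the positive sample and pairs 1 and 4 higher, giving 0.24 (SE 0.20, adjusted p = 0.436).

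In complex III the calls covered the electron-carrying and the structural subunits. Cyc1 encodes cytochrome c1, the heme protein that passes electrons to cytochrome c. Cyc1 had signals of 3082, 2675, 1998 and 3645 in the MYC-positive samples of pairs 1 to 4, against 1386, 1549.7, 1490.2 and 1772 in their MYC-negative partners. The groups did not overlap, and pair 3 differed least. Cyc1 was higher by 0.85 (SE 0.17, adjusted p = 0.00978). Uqcrfs1, the Rieske iron-sulphur protein that takes electrons from ubiquinol, was higher by 0.53 (SE 0.13, adjusted p = 0.0231), and its groups did not overlap either.

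Uqcr11 encodes a small accessory subunit. Uqcr11 had signals of 2843, 2743, 1752 and 4093 in the MYC-positive samples of pairs 1 to 4, against 1252, 1490.3, 1495 and 1373 in their MYC-negative partners. All positive samples were above all negative ones, with pair 3 again the closest, and the difference was 0.97 (SE 0.22, adjusted p = 0.0152). Uqcrq encodes a small subunit next to cytochrome b. Uqcrq had signals of 2068, 2464, 2536 and 3689 in the MYC-positive samples of pairs 1 to 4, against 894, 1209, 1554 and 2197 in their MYC-negative partners. The positive sample was higher in each pair, although the negative sample of pair 4 exceeded the positive sample of pair 1. The difference was 0.92 (SE 0.16, adjusted p = 0.00562). It rests on a probe set whose suffix marks probes shared between transcripts. The only other kept probe set of Uqcrq was dim, with a mean signal of 65.8, and differed by 0.08.

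Uqcrc1, a core subunit on the matrix side, was higher by 0.67 (SE 0.20, adjusted p = 0.0429), and the small subunit Uqcr10 by 0.52 (SE 0.16, adjusted p = 0.042). Uqcrc2, the other core subunit, and Uqcrb, which lies near a ubiquinone site, differed by 0.31 and 0.22 and were not called. Uqcrh, the hinge protein that contacts cytochrome c1, showed the smallest difference of the complex. Uqcrh had signals of 9338, 8913, 9512 and 14191 in the MYC-positive samples of pairs 1 to 4, against 7801, 9331, 7933 and 11296 in their MYC-negative partners. The groups overlapped and pair 2 was slightly lower in the positive sample, with a difference of 0.20 (SE 0.12, adjusted p = 0.279). Without pair 1 and without pair 2, 0 members of complex III were called, and without pair 4, 7 were.

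Cycs encodes cytochrome c, the soluble carrier between complexes III and IV that also triggers caspase activation when it leaves the mitochondrion. Cycs had signals of 7143, 7529, 10118 and 14308 in the MYC-positive samples of pairs 1 to 4, against 3252, 3389, 7281 and 8431 in their MYC-negative partners. Each positive sample was above its partner, but the pairs sat at different levels and the groups overlapped: the negative samples of pairs 3 and 4 were close to or above the positive samples of pairs 1 and 2. The difference was 0.88 (SE 0.15, adjusted p = 0.00469). Both other bright probe sets of the gene differed in the same direction, by 1.01 and 1.10. Without the pair block the adjusted p was 0.0936, and without pair 1 it was 0.055. Cyct, the testis form of cytochrome c, was dim, with geometric mean signals of 17.2 in MYC-positive and 33.0 in MYC-negative samples.

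**Figure D3:**
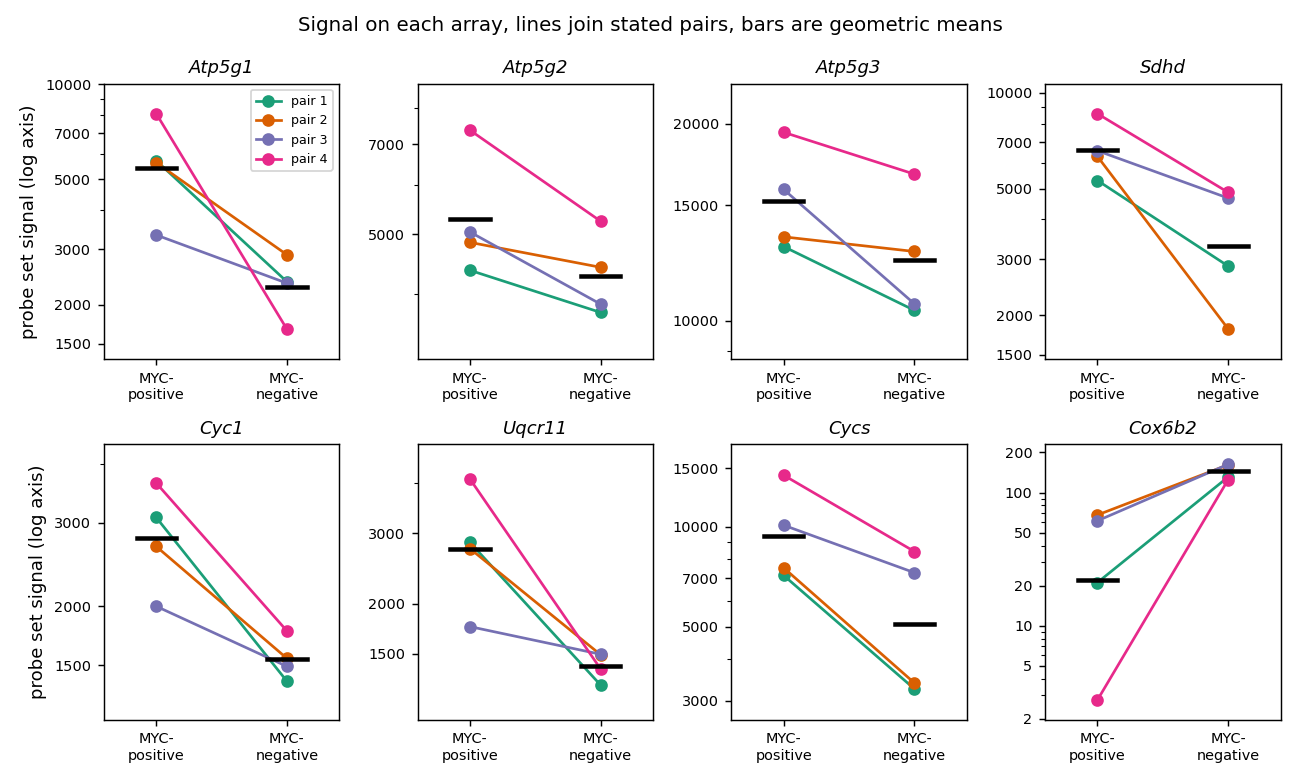
Probe set signal on each array (log axis) for 8 members, with MYC-positive samples on the left and MYC-negative samples on the right of each panel. Lines join the stated pairs and black bars are geometric means. The lines fall to the right in every pair for Atp5g1, Atp5g2, Atp5g3, Sdhd, Cyc1, Uqcr11 and Cycs, and rise to the right for Cox6b2.

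In complex IV no member was called higher in the fit reported, and the count depended on the setting. It was 7 of 14 after median centring, which called 27.3% of all genes higher. It was 1 with the filter at the 60th percentile, with the mean of all kept probe sets (Cox4i1 in both) and without pair 3 (Cox5a). Its nuclear subunits surround a mitochondrially encoded core and several exist as tissue forms. Among the broadly expressed ones, Cox4i1, the form of the largest nuclear subunit found in most tissues, came closest. Cox4i1 had signals of 7382, 7656, 8937 and 12154 in the MYC-positive samples of pairs 1 to 4, against 5777, 6561, 6321 and 9317 in their MYC-negative partners. The positive sample was higher in each pair and the groups overlapped, with a difference of 0.36 (SE 0.12, adjusted p = 0.0534). Cox5a, which binds the matrix side of the core, was the only complex IV member whose positive samples all exceeded the negative ones, with a difference of 0.38 (SE 0.13, adjusted p = 0.0621). Median centring also brought both genes past the threshold, with adjusted p = 0.00583 for Cox4i1 and 0.00421 for Cox5a. The lung form was near background. Cox4i2 had signals of 21.6, 4.82, 7.77 and 8.25 in the MYC-positive samples of pairs 1 to 4, against 31.4, 10.7, 5.60 and 4.96 in their MYC-negative partners. It was under the filter level of 18.7 on 6 of the 8 arrays and was not tested.

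Cox6a1 had signals of 13202, 10516, 12726 and 18438 in the MYC-positive samples of pairs 1 to 4, against 10814, 11695, 10228 and 12846 in their MYC-negative partners. Pair 2 was lower in the positive sample and the groups overlapped, with a difference of 0.24 (SE 0.13, adjusted p = 0.226) for this broadly expressed form. Its heart and muscle form was near background. Cox6a2 had signals of 57.9, 31.3, 19.02 and 37.5 in the MYC-positive samples of pairs 1 to 4, against 26.6, 7.94, 39.7 and 44.2 in their MYC-negative partners. The direction differed between pairs and the difference of 0.45 had an interval of -0.84 to 1.75.

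Cox6b1, the broadly expressed form of a subunit on the outer face of the complex, had overlapping groups. Cox6b1 had signals of 11068, 11386, 14533 and 17624 in the MYC-positive samples of pairs 1 to 4, against 9063, 12009, 9749 and 16638 in their MYC-negative partners. The difference was 0.22 (SE 0.13, adjusted p = 0.276). Its testis form Cox6b2 was the member called lower. Cox6b2 had signals of 21.1, 67.9, 61.4 and 2.78 in the MYC-positive samples of pairs 1 to 4, against 131, 162, 163 and 125 in their MYC-negative partners. All positive samples lay below all negative ones, and the positive sample of pair 4 was under the filter level. The difference was -2.70 (SE 0.67, adjusted p = 0.0216), an interval of -4.22 to -1.17. With signals floored at 16 it was -2.06, and without pair 4 it was -1.76.

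Cox7a2 had signals of 14294, 14383, 19141 and 21485 in the MYC-positive samples of pairs 1 to 4, against 11003, 14199.9, 11911 and 22701 in their MYC-negative partners. This form of the subunit found in most tissues was lower in the positive sample of pair 4 and higher in the other pairs, with a difference of 0.25 (SE 0.14, adjusted p = 0.245). Cox7a1 had signals of 106, 90.7, 108 and 121 in the MYC-positive samples of pairs 1 to 4, against 47.2, 132, 92.4 and 101 in their MYC-negative partners. The heart and muscle form overlapped between groups and differed by 0.28 (SE 0.38, adjusted p = 0.642).

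Cox7a2l is a relative of these that links complexes III and IV in respiratory supercomplexes, and C57BL6 mice are known to carry a shortened form of it. Cox7a2l had signals of 8554, 7637, 9589 and 11722 in the MYC-positive samples of pairs 1 to 4, against 9061, 9371, 9772 and 18457 in their MYC-negative partners. It was lower in the positive sample of every pair, most in pair 4, where the negative sample stood far above the others. The difference of -0.27 was not called (SE 0.14, adjusted p = 0.196). The remaining 2 probe sets of the gene differed by -0.27 and -0.32. After quantile normalization it was called lower (-0.42, adjusted p = 0.00479), and after median centring the sign turned (0.18).

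Cox8a had signals of 3289, 2132, 1634 and 3138 in the MYC-positive samples of pairs 1 to 4, against 1954, 1784, 1773 and 1646 in their MYC-negative partners. Pairs 1, 2 and 4 were higher in the positive sample of this broadly expressed form, with a difference of 0.46 (SE 0.20, adjusted p = 0.135). Its heart and muscle form Cox8b was not tested. Cox8b had signals of 14.5, 2.55, 11.9 and 8.08 in the MYC-positive samples of pairs 1 to 4, against 26.6, 13.0, 22.5 and 21.2 in their MYC-negative partners. All 4 positive arrays and 1 negative array were under the filter level. Cox8c had signals of 9.08, 19.2, 44.0 and 10.2 in the MYC-positive samples of pairs 1 to 4, against 36.5, 30.0, 49.1 and 40.3 in their MYC-negative partners. This testis form was lower in the positive sample of each pair, 2 of the positive arrays were under the filter level, and the difference of -1.20 was not called (SE 0.50, adjusted p = 0.122).

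Cox7c, a small subunit, showed the smallest difference of the complex on its chosen probe set. Cox7c had signals of 727, 531, 749 and 713 in the MYC-positive samples of pairs 1 to 4, against 806, 510.0, 441 and 1186 in their MYC-negative partners. Pairs 1 and 4 were lower and pairs 2 and 3 higher in the positive sample, which gave -0.02 (SE 0.26, adjusted p = 0.97). The other kept probe set of Cox7c was dim, with a mean signal of 50.3, and was lower in the positive sample of all 4 pairs, by a mean log2 difference of -0.95. Used alone it was not called (adjusted p = 0.146). Cox5b and Cox6c differed by 0.25 and 0.09 and were not called. Without the dim testis forms Cox6b2 and Cox8c, the median of complex IV was 0.25 over 12 genes, with 0 called in either direction. Cox7b2, a relative of the small subunit Cox7b, was not tested, with signals of at most 18.9 on every array.

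In complex V all 17 differences were positive, and Atp5g1, a gene of the membrane rotor, gave the largest. Atp5g1, Atp5g2 and Atp5g3 encode the same mature c subunit of the rotor ring, each with its own import sequence. Atp5g1 had signals of 5728, 5644, 3326 and 8078 in the MYC-positive samples of pairs 1 to 4, against 2363, 2878, 2338 and 1671 in their MYC-negative partners. The groups did not overlap, and pair 4 combined the highest positive with the lowest negative sample. Atp5g1 was higher by 1.26 (SE 0.25, adjusted p = 0.00946), an interval of 0.69 to 1.83, and by 0.92 without pair 4.

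Atp5g2 had signals of 4370.1, 4850.1, 5042 and 7371 in the MYC-positive samples of pairs 1 to 4, against 3734, 4419, 3851 and 5248 in their MYC-negative partners. Atp5g3 had signals of 12979, 13433, 15866 and 19395 in the MYC-positive samples of pairs 1 to 4, against 10375, 12759, 10614 and 16743 in their MYC-negative partners. Both were higher in the positive sample of each pair, with overlapping groups, and neither was called, at 0.31 (SE 0.13, adjusted p = 0.124) and 0.30 (SE 0.12, adjusted p = 0.109). A second probe set of Atp5g1 was dim, with a mean signal of 70.6, and differed by 0.36. The mean of both was not called, with a difference of 0.81 and an adjusted p of 0.0741. Whether the 3 genes differ from each other was not tested.

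Of the 5 subunits of the F1 head, 2 were called higher. Atp5b had signals of 9806, 9066, 8377 and 11863 in the MYC-positive samples of pairs 1 to 4, against 5544, 7173, 5236 and 6896 in their MYC-negative partners. The groups of this catalytic beta subunit did not overlap, and the difference was 0.66 (SE 0.13, adjusted p = 0.00885). Atp5c1, the gamma subunit that turns inside the head, was higher by 0.46 (SE 0.12, adjusted p = 0.0279), but its second probe set, with a mean signal of 463, differed by -0.90 and was lower in all 4 pairs. The alpha subunit Atp5a1, the delta subunit Atp5d and the epsilon subunit Atp5e differed by 0.28, 0.42 and 0.33 and were not called.

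Among the 12 other subunits, 3 were called higher: Atp5g1, Atp5md and Atp5l. Atp5md encodes a small membrane subunit known as DAPIT. Atp5md had signals of 7359, 5616, 7239.5 and 9812 in the MYC-positive samples of pairs 1 to 4, against 3742, 4031, 3927 and 9272 in their MYC-negative partners. Pairs 1 to 3 were clearly apart, whereas the negative sample of pair 4 was close to its partner and above every other negative sample. The difference was 0.60 (SE 0.17, adjusted p = 0.0313). Atp5l, the g subunit that helps ATP synthases to pair up in the membrane, was higher by 0.46 (SE 0.14, adjusted p = 0.0383).

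Atp5h, the d subunit of the stalk that holds the head still, showed the smallest difference of the complex. Atp5h had signals of 10804, 11099, 12522 and 15460.1 in the MYC-positive samples of pairs 1 to 4, against 8474, 10872, 9407 and 14059 in their MYC-negative partners. Each positive sample was above its partner and the groups overlapped, with a difference of 0.23 (SE 0.12, adjusted p = 0.192). The remaining stalk and membrane subunits, Atp5j, Atp5j2, Atp5k, Atp5o, Atp5pb and Atp5mpl, were not called. Their differences ran from 0.27 for Atp5mpl to 0.36 for Atp5j. Without the pair block 2 members of complex V were called, and without pairs 1, 2, 3 or 4 the counts were 0, 2, 2 and 7.

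Over all members, positive and negative arrays did not overlap for 9 genes. Sdhc, Sdhd, Cyc1, Uqcr11, Uqcrfs1, Cox5a, Atp5b and Atp5g1 were higher on all 4 positive arrays than on any negative one, 8 of 45, against 11.1% of all genes tested, and Cox6b2 was lower. For 28 members a total of 40 other probe sets passed the filter, and 5 of these had a sign opposite to that of the chosen probe set. They belonged to Sdha (-0.92), Cox5b (-0.53), Cox8a (-0.28), Atp5c1 (-0.90) and Atp5j2 (-0.94), and all were dimmer, with mean signals of 100.3 to 463. A total of 15 chosen probe sets had a suffix that marks probes shared between transcripts or genes, those of Sdhd, Uqcrq and Atp5c1 among the called ones. With such probe sets left out, an alternative chosen after the data were seen, 13 of 43 members tested were called higher and 2 lower, Uqcrq was not called (0.08) and Atp5c1 was among the lower ones at -0.90.

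Assembly factors mature and insert the subunits and are not part of the finished complexes. Of 36 tested, 14 were called higher and 0 lower, against 11.2% higher and 11.5% lower over all genes tested. For complex II, Sdhaf3 (1.03, adjusted p = 0.0312) and Sdhaf1 (0.96, adjusted p = 0.022), which help to place iron-sulphur clusters in Sdhb, were higher, 2 of 4. For complex III it was Bcs1l (1.31, adjusted p = 0.0058), which inserts the Rieske protein, 1 of 6 (16.7%), a share near that of all genes. For complex V Tmem70 (0.98), Fmc1 (0.95) and Atpaf1 (0.79), a chaperone of the beta subunit, were higher, 3 of 6.

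For complex IV, 8 of 20 assembly factors were higher, with a median difference of 0.56 over the 20, against 0.25 over the 14 subunits. Cox10, which makes the first intermediate of heme A, had geometric mean signals of 482 in MYC-positive and 198 in MYC-negative samples (1.28, SE 0.29, adjusted p = 0.0156). Sco1 (0.93, SE 0.21, adjusted p = 0.0159) and Cox11 (0.93, SE 0.14, adjusted p = 0.00323) deliver copper to the core subunits. The other 5 were Lrpprc, Cox16, Cox17, Cmc2 and Coa3, with differences of 0.54 to 0.82. The sign turned for Cox16 with the mean of all kept probe sets (-0.19) and for Cox17 without probe sets of shared suffix (-0.31). The difference between factors and subunits was not tested, and their signal levels were not matched. Without pair 1 only 1 of the 36 factors was called, and without pair 2 only 2.

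**Figure D4:**
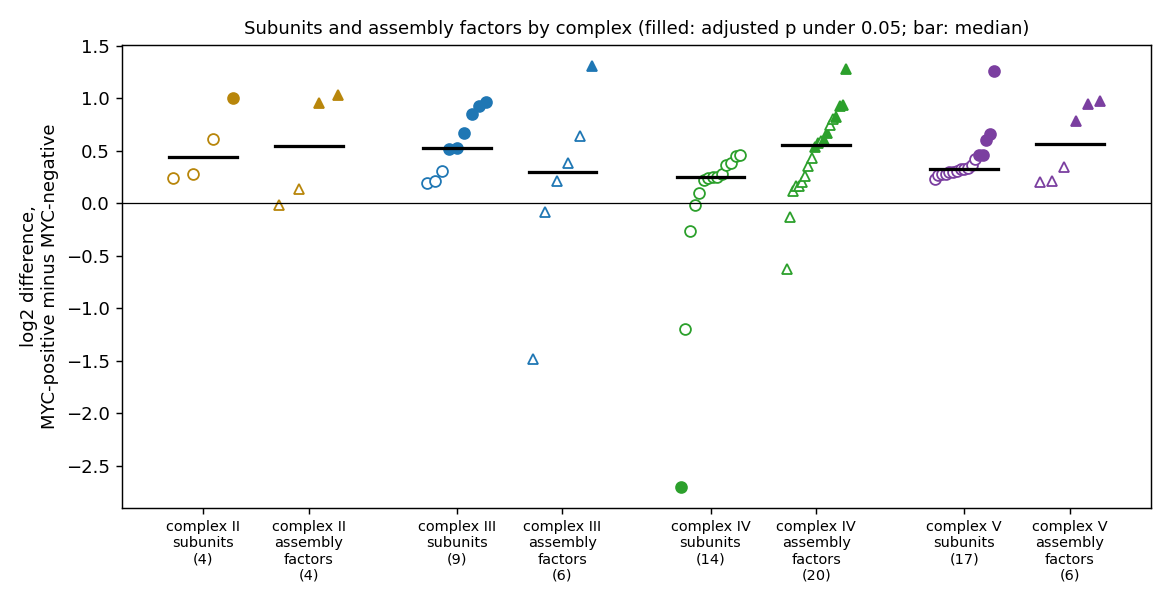
Log2 difference, MYC-positive minus MYC-negative, of each tested subunit gene (circles) and assembly factor gene (triangles) of complexes II to V. Filled symbols had an adjusted p under 0.05 and bars are medians. Among complex IV genes, 8 triangles are filled above 0 and no circle is, while the filled circle at -2.70 is Cox6b2.

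Of 9 genes for heme synthesis and cytochrome c maturation, with the testis cytochrome c Cyct counted among them, 1 was higher, the heme synthesis enzyme Alad (0.80, adjusted p = 0.0309). This share, 11.1%, was that of all genes tested (11.2%). Among 14 known regulators of mitochondrial genes, Pprc1, a coactivator related to PGC-1, was higher (1.00, SE 0.26, adjusted p = 0.0255) and Gabpb2, a subunit of an ETS factor complex, was lower (-0.73, SE 0.21, adjusted p = 0.0338). Each share, 7.14%, was under that of all genes tested (11.2% higher, 11.5% lower). Both calls were lost without the pair block, without pair 1 and without pair 2. That of Gabpb2 was also lost after median centring (-0.29, adjusted p = 0.319) and with the mean of its kept probe sets, and that of Pprc1 without pair 3. The factors Nrf1 (-0.35, adjusted p = 0.434), Gabpa (-0.22, adjusted p = 0.475) and Tfam (0.09, adjusted p = 0.773) were not called. Of the genes of mitochondrial DNA only ND5, a complex I subunit, was measured here by a probe set for a single gene, with geometric mean signals of 11764 in MYC-positive and 11749 in MYC-negative samples (adjusted p = 0.993).

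GC B cell markers were present in both groups. Of 13 tested, 0 were higher and 4 lower (Mybl1, Pax5, Cd22 and Fas), or 30.8% lower against 11.5% of all genes tested. All 13 differences were negative. The summed signal of these markers was 67012 to 87284 in MYC-positive against 82937 to 114490.0 in MYC-negative samples. Some markers of other cells also moved with the comparison. Of 13 myeloid markers tested, 7 were called higher (Lyz2, Csf1r, C1qa, C1qb, C1qc, Tyrobp and Fcer1g), or 53.8% against 11.2% of all genes tested. The MYC-positive sample of pair 1 had the highest signal for each of these 7. The geometric mean signal of Lyz2, for lysozyme, was 831 in MYC-positive and 78.6 in MYC-negative samples. All 4 MYC-negative arrays were under the filter level for C1qa, C1qc and Fcgr1 (not called), and 3 were for Csf1r. These genes passed the filter through the MYC-positive samples, which favours a positive sign, and no fold is given for these. The summed myeloid signal was 12359 to 21083 in MYC-positive against 11527 to 14208 in MYC-negative samples, and Itgam and Cd14 were under the filter. Of the 13 differences 12 were positive, a count that includes the genes that passed through the MYC-positive samples. Cybb was lower in all 4 pairs (-0.36, not called). Ctss, the brightest of the list, was level (0.01). Of 6 plasma cell markers tested, 2 were higher, Sdc1 (2.02) and Irf4 (1.57), or 33.3% against 11.2% of all genes tested. The plasma cell sums were 30807 to 41671 in MYC-positive against 22612 to 36442 in MYC-negative samples. Prdm1 (0.54) and Xbp1 (0.35) were not called, Jchain (0.02) and Mzb1 (0.005) were level, and Tnfrsf17 was under the filter. T cell markers were near background in both groups, with sums of 60.4 to 139 against 97.6 to 185, as were erythroid ones, with sums of 35.2 to 69.9 against 23.1 to 68.9. The part of these cells in the differences of the respiratory genes was not tested.

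The size of every difference followed the scaling of the arrays. Quantile normalization shifted the all-gene median by 0.15, and subtracting each array's own median (median centring) shifted it by 0.44, and the share of higher genes among all calls was 49.4% as deposited, 57.2% and 85.4%. After median centring 38 members were called higher and 1 lower, against 3204 (27.3%) and 546 of all 11754 genes. The medians were then 0.88 for complex II, 0.97 for complex III, 1.32 for cytochrome c, 0.69 for complex IV and 0.77 for complex V, against 0.38 for all genes. After quantile normalization the median was 0.09 for complex IV and also for all genes, 0.19 for complex V and 0.46 for complex III. Complex III stayed above complex IV after quantile normalization. Median centring adds the same amount to the difference of every gene, so it could not change the order of the complexes.

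**Figure D5:**
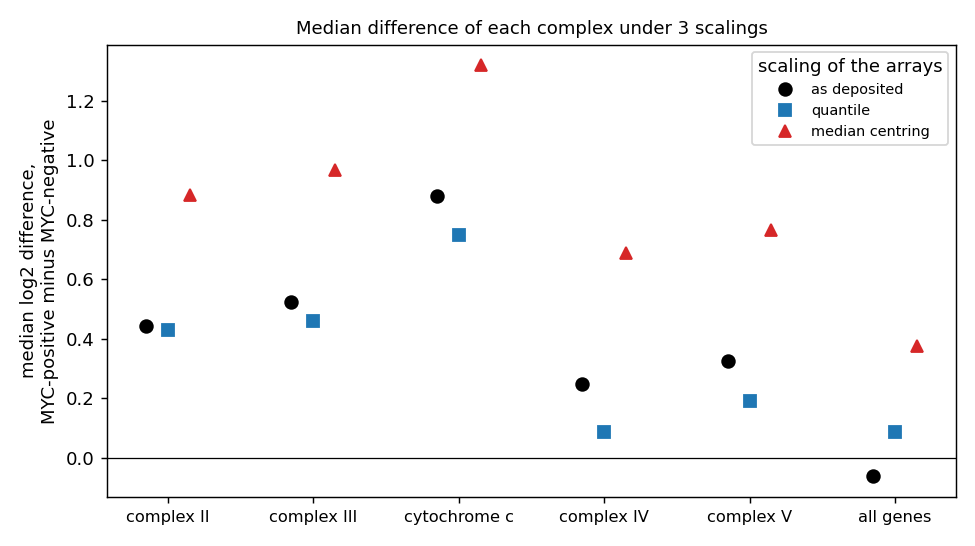
Median log2 difference, MYC-positive minus MYC-negative, of each complex, of cytochrome c and of all genes tested, as deposited (circles), after quantile normalization (squares) and after median centring (triangles). The triangles lie highest for every group, and under quantile normalization the squares of complex IV and of all genes are level at 0.09.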

How the data were processed

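The authors deposited linear signal intensity per probe set, in 1 table for 8 arrays. MAS5 is the tool named per the submitters' processing notes, and the sources used here give neither its version nor its scaling target. Of 45056 probe sets, 19 were controls, and 34945 had 1 gene in the platform annotation. Signals were floored at 1 before taking log2. Probe sets with a mean above the 40th percentile of non-control probe sets (a signal of 18.7) were kept, and the one with the highest mean stood for each of 11754 genes. The model, group plus pair, was fitted with limma 3.58.1 under R 4.3.3 (lmFit, then eBayes with a trend on intensity), leaving 3 residual degrees of freedom. P-values were 2-sided and adjusted by the Benjamini-Hochberg method over all genes tested.

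The pairs come from the sample descriptions, not from the replicate numbers in the titles. Deviations of paired samples from their group means correlated at 0.26, 0.17, 0.088 and 0.12 over the genes tested. If pairs are not separate animals, the p-values reflect just the spread between these samples, which may be technical. The members and all lists were chosen with earlier results of these data known. Values on every array are given for all of complex II, Cyc1, Cycs, the 3 largest called differences and the smallest difference of complexes III, IV and V, any gene called lower and the paralogue sets, and other members by difference, range or count. From each list the 3 largest called genes are given, with further names added after their values were seen. The alternatives were quantile normalization, median centring, filters at none and at the 60th percentile, a floor of 16, the mean of all kept probe sets, no pair block and each pair left out. Detection calls were not used here.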

Additional observations from a re-analysis of the deposited data

Results flagged for a closer look

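In 5 of the 90 groups of 4 arrays checked (45 members, 2 groups each), 1 array lay far from the other 3, with a gap to its nearest neighbour that passed Dixon's 95% critical value, taken as a share of the group's whole range on the log2 scale. Chance gives such a gap in about 1 of 20 groups, so this number is near what chance gives. Among MYC-positive arrays, the array of pair 4 was the highest for Uqcrh (0.86 of the range), the array of pair 2 was the lowest for Cox7c (0.856), and the array of pair 3 was the lowest for Atp5d (0.852). Among MYC-negative arrays, that of pair 4 was the highest for both Cox7a2l (0.894) and Atp5md (0.918). Of these genes Atp5md was the one called, and without pair 4 it was called as well. The cause was not tested.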

How the results depend on the processing

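The counts of called members depended on the scaling of the arrays and on pairs 1 and 2. With each pair left out in turn, the number of calls ran from 755 to 3778 over all genes, from 0 to 17 over all members, from 0 to 2 in complex II, from 0 to 7 in complex III, from 0 to 1 for Cycs, from 0 to 2 in complex IV, from 0 to 7 in complex V, and from 1 to 16 over the assembly factors. Such fits have fewer samples. After median centring 3750 of all 11754 genes were called. The counts were then 39 members in all, 4 in complex II, 8 in complex IV (7 higher, 1 lower), 17 in complex V and 27 assembly factors. Median differences were 0.884, 0.966, 1.32, 0.687 and 0.765 for complexes II and III, cytochrome c, and complexes IV and V. Without the pair block the counts were 8 members in all, 0 for Cycs and 2 in complex V. Complex II had 2 calls after quantile normalization, with the 60th percentile filter and with the floor, and complex IV had 2 after quantile normalization (both lower) and with mean probe sets (1 higher, 1 lower). With mean probe sets the sign turned for Atp5c1 (-0.217) and Cox16 (-0.191), and without probe sets of shared suffix, chosen after seeing the data, for Atp5c1 (-0.895) and Cox17 (-0.308). The other counts under the alternatives stayed within 1.5 times. No paired analysis by the replicate numbers was possible because the groups share only the number 4 in their titles. The pairs from the descriptions are in the fit reported. With 3 residual degrees of freedom, a difference that was not called is not shown to be absent. No detection calls were used, so members near the filter level rest on signals close to background.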
